A study of Mus musculus with 8 samples.

Results

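IL-31 and oncostatin M are cytokines of the interleukin-6 family, and 10 mouse genes of the route that carries their signal were examined here in dorsal root ganglia, which house the cell bodies of sensory neurons. The genes were chosen by name in the deposited expression table: the receptor subunits Il31ra, Osmr, Il6st and Lifr, the kinases Jak1, Jak2 and Tyk2, the transcription factors Stat3 and Stat5b, and the inhibitor Socs3. Each name matched 1 of 40800 gene identifiers, and all 10 genes were among the 15030 tested, those with a log2 CPM above 0 in at least 4 samples. Log2 CPM is the base 2 logarithm of reads scaled to the library total (CPM), with a small prior count added. Ganglia came from mice aged 6 months on a C57BL/6 background. The 4 wild types (labelled 1, 3, 4 and 8) were compared with 4 homozygotes for a Tmem184b gene trap, an insertion that ends the transcript early, labelled mutants 1 to 4. All cells of the ganglion contribute to these libraries, and the labels do not say that any cell type was sorted. The design text gives 4 mice per genotype, and the labels name neither litter nor sex. Running numbers in the sample headers, of unstated meaning, are lower in every mutant than in every wild type and highest in wild type 8. Anything that follows these numbers cannot be told apart from genotype.

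Signalling by this family starts when a cytokine joins receptor chains that have no enzyme activity of their own. Il31ra and Osmr together form the receptor for IL-31, an itch-inducing cytokine of T helper cells. Osmr with Il6st, the shared chain also called gp130, binds oncostatin M, and Lifr with Il6st binds leukemia inhibitory factor. Janus kinases held on the receptor tails then phosphorylate STAT proteins, which enter the nucleus and switch on genes that include Socs3, whose product blocks the receptor in return. In sensory ganglia Il31ra and Osmr are best known from the small itch neurons that also make natriuretic polypeptide b and somatostatin, a class called NP3, whereas gp130 is found in most cell types.

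The mutant ganglia held less transcript of 6 of the 10 genes: Il31ra, Osmr, Il6st, Lifr, Jak1 and Stat3. Il31ra was at 9.77% of its mean wild-type CPM, Osmr at 37.8%, and the other 4 at 79.9% to 85.5%. Jak2, Tyk2, Stat5b and Socs3 did not pass the test. In bulk tissue, fewer cells of a type and less RNA per cell cannot be told apart. By limma with Benjamini-Hochberg adjustment over all tested genes, 6 of the 10 were called lower at an adjusted p under 0.05, where 2.64% of all tested genes were called lower. None of the 10 was called higher by limma, where 2.81% of all tested genes were called higher. By voom on the reads 0 of the 10 were called higher, where 415 of 15030 tested genes were. At an unadjusted p under 0.05, 0 of the 10 were higher, and the share of all tested genes was not taken. The same 6 genes had groups that did not overlap, all lower, against 4.92% of tested genes lower and 7.5% higher without overlap. The median log2 difference was -0.29 over the 10 genes and 0.0662 over all tested genes. These genes were picked with earlier results of the same data known, so the counts describe them and are not an independent test.

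Without the mean-variance trend in the variance model, which lowered the calls over all genes from 397 to 75 lower and from 423 to 67 higher, Il31ra and Osmr were the only 2 of the 10 still called. With the median of every sample set equal, 706 genes were called lower and 204 higher, and 6 of the 10 were called lower. Quantile normalization gave 422 lower and 271 higher, with 5 of the 10 called lower.

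**Figure D1:**
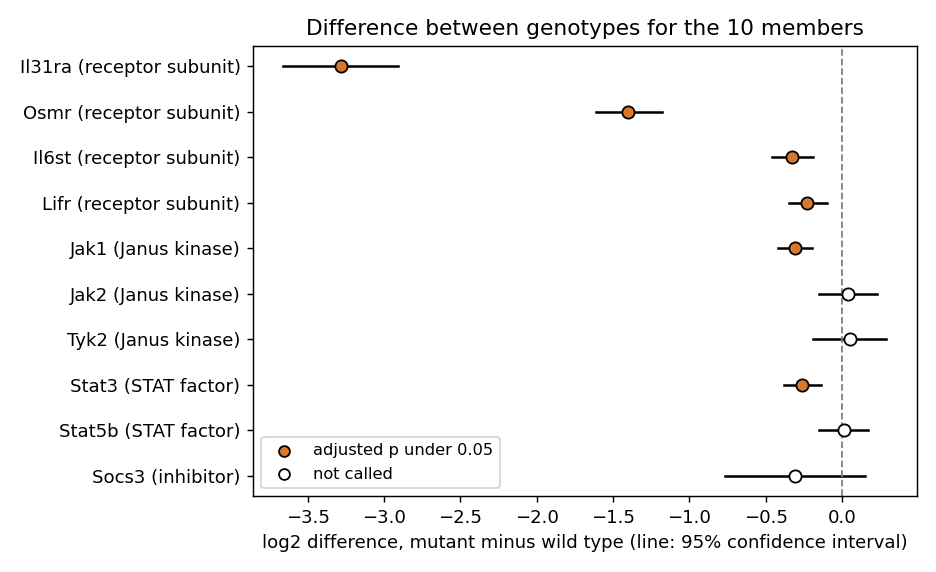
Log2 difference between mutant and wild type (x axis) for each of the 10 genes (rows), with its 95% confidence interval from limma, filled where the adjusted p was under 0.05. Il31ra lies at -3.28 and Osmr at -1.40, 4 filled points lie between -0.33 and -0.23, and the intervals of the 4 open points include 0.

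The promoters of the genes with the largest falls, Il31ra and Osmr, and of Socs3, the textbook STAT target, are shown to set a STAT recognition sequence in its place. Each run is the 250 bases before the RefSeq start site in GRCm38.p6, 5′ to 3′ on the gene's strand, and capitals mark a match to TTCNNNGAA, which reads the same on both strands. The windows are chr13:112580663-112580912 for Il31ra, chr15:6874314-6874563 for Osmr and chr11:117969367-117969616 for Socs3, all on the minus strand.
Il31ra: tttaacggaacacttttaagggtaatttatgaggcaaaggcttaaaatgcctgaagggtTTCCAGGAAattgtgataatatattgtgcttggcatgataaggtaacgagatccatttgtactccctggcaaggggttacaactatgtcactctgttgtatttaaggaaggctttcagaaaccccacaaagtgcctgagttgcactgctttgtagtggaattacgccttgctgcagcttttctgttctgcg
Osmr: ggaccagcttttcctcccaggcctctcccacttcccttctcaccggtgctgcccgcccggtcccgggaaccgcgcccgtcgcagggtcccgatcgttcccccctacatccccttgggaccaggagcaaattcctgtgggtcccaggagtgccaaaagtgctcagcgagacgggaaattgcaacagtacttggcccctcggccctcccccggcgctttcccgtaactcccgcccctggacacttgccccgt
Socs3: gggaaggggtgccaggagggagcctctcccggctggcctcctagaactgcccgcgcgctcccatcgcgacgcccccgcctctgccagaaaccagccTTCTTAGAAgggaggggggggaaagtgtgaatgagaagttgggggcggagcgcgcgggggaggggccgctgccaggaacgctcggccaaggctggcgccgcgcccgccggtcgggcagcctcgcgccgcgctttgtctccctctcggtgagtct
The RefSeq starts of Il31ra, Osmr and Socs3 lie inside the longer spans that GENCODE gives these genes, and so do the 3 windows shown. The match began 191 bases before the start in Il31ra and 154 bases before it in Socs3. All 10 genes had at least 1 window, and the other 8 held no match in theirs. Among all 27025 genes with a window, 8.1% held one in any of their windows. A second motif, TGTGGT or its reverse complement ACCACA, the core bound by the sensory neuron factor Runx1, was found in no window of the 10 genes, where 15.9% of all genes held it. A match is a description of the letters, not evidence that a factor binds there.

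Library totals were 6183618 to 7983821 reads. The trapped gene Tmem184b had a wild-type level of 171 ± 8.44 CPM and a mutant level of 6.65 ± 1.30 CPM (SD, n = 4 each), with no overlap, so the libraries matched their genotype labels. Xist was above 7 log2 CPM in wild types 1, 4 and 8 and mutants 1 and 2, and below 1 in wild type 3 and mutants 3 and 4, so both genotypes mixed sexes by this measure. The pan-neuronal markers gave sums of 7181 to 7997 CPM in wild-type and 7350.4 to 8019.7 CPM in mutant libraries, and 0 of 7 were called by limma or by voom (1 lower and 1 higher at an unadjusted p under 0.05).

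Receptor subunits are described first, from the chain of narrowest use to the shared one. Il31ra (ENSMUSG00000050377; chromosome 13, 112519898 to 112594360, GRCm38) encodes the chain that makes the receptor specific for IL-31. Its level was 37.9, 29.7, 41.3 and 41.7 CPM in wild types 1, 3, 4 and 8, and 3.44, 5.34, 3.08 and 2.86 CPM in mutants 1 to 4. The highest mutant, mutant 2, was far below the lowest wild type, wild type 3. Reads behind these values were 237 to 330 per wild-type library and 20 to 33 per mutant library, well above the floor of 3 reads taken as detection. The log2 difference was -3.28 (SE 0.176; limma adjusted p = 1.04e-07), the second smallest p of all tested genes after that of the trapped gene. It was called in all 19 alternative fits, with values from -3.47 to -3.06.

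Osmr (ENSMUSG00000022146; chromosome 15, 6813577 to 6874969) encodes the chain shared by the IL-31 and oncostatin M receptors. Wild types 1, 3, 4 and 8 had 61.8, 62.0, 59.0 and 73.5 CPM, and mutants 1 to 4 had 20, 23.9, 26.6 and 26.3 CPM. Every mutant was below every wild type, and wild type 8 was the highest of all. Its log2 difference was -1.40 (SE 0.10; limma adjusted p = 2.29e-06), and it was called in all 19 alternative fits (-1.49 to -1.31). Il31ra and Osmr stayed called with Xist as a covariate, at -3.20 and -1.42.

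Il6st (ENSMUSG00000021756; chromosome 13, 112464070 to 112510086) encodes gp130, the chain that receptors of nearly the whole family share. It had 1182, 1203, 1169 and 1149 CPM across wild types 1, 3, 4 and 8, and 1012, 974, 949 and 823 CPM across mutants 1 to 4. The wild types lay within a narrow band, and mutant 4 was the lowest sample. This was a log2 difference of -0.33 (SE 0.063; limma adjusted p = 0.00855). Its call was lost in 1 of 19 alternative fits, the one without the variance trend (adjusted p = 0.0934).

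Lifr (ENSMUSG00000054263; chromosome 15, 7090614 to 7197489) encodes the partner of gp130 for leukemia inhibitory factor. Its levels were 1575, 1593, 1582 and 1421 CPM across wild types 1, 3, 4 and 8, against 1307, 1363, 1377 and 1227 CPM across mutants 1 to 4. Wild type 8 stood below the other wild types and just above the highest mutant. Its log2 difference was -0.23 (SE 0.059; limma adjusted p = 0.0381), the weakest of the 6 calls. It held in 9 of 19 alternative fits and was lost when wild type 1 (adjusted p = 0.118), 3 (0.0974) or 4 (0.0735) or mutant 1 (0.0904), 2 (0.063) or 4 (0.0789) was left out. It was also lost under quantile normalization (0.139), without the variance trend (0.151), without a filter on low values (0.0675) and with Xist as a covariate (0.0501).

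**Figure D2:**
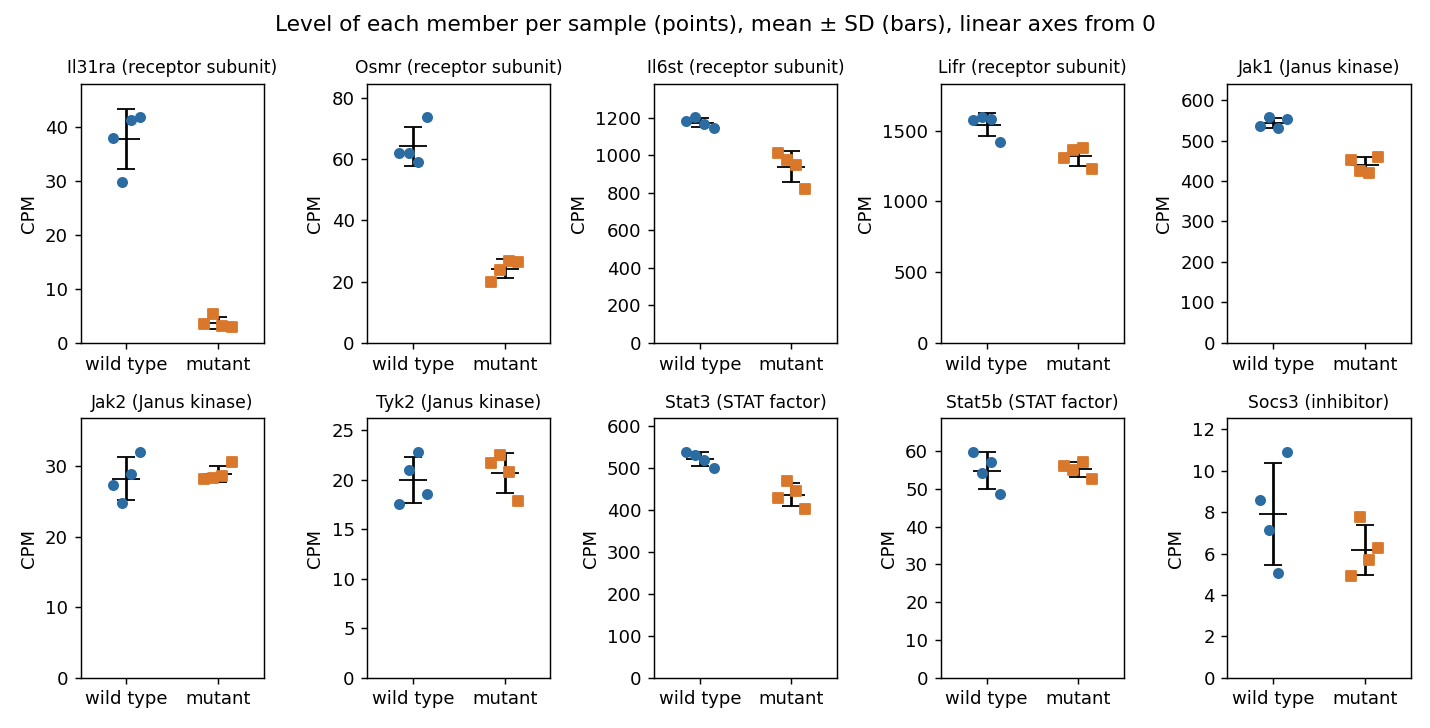
CPM of each of the 10 genes (y axis, linear from 0) in the 4 wild-type and 4 mutant samples (points), with mean ± SD as bars. The groups are apart for Il31ra, Osmr, Il6st, Lifr, Jak1 and Stat3 and overlap for Jak2, Tyk2, Stat5b and Socs3.

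Among the Janus kinases, only Jak1 was called. Jak1 (ENSMUSG00000028530; chromosome 4, 101152367 to 101265282) encodes the kinase that gp130, Osmr and Il31ra all engage. The wild types had 535, 557, 531 and 552 CPM and the mutants 452, 424, 420.4 and 460 CPM. The ranges were well separated, with little spread inside either genotype. That is a log2 difference of -0.31 (SE 0.051; limma adjusted p = 0.00339), lost in 1 of 19 alternative fits, the one without the variance trend (0.0654).

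Jak2 (chromosome 19, 29251828 to 29313080) encodes a second kinase of these receptors. It had 27.3, 24.8, 28.9 and 32.0 CPM across wild types 1, 3, 4 and 8, and 28.2, 28.3, 28.6 and 30.6 CPM across mutants 1 to 4. The mutants all fell inside the wild-type range. The log2 difference was 0.04, with a 95% confidence interval of -0.15 to 0.23 (limma adjusted p = 0.842).

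Tyk2 (chromosome 9, 21104068 to 21131243), a kinase better known from interferon and interleukin-12 receptors, had 17.6, 21.0, 22.8 and 18.6 CPM across wild types 1, 3, 4 and 8, and 21.7, 22.5, 20.8 and 17.9 CPM across mutants 1 to 4. These groups overlapped too. The log2 difference was 0.05 (95% confidence interval -0.19 to 0.29; limma adjusted p = 0.839). For Jak2 and Tyk2 the sign turned under median centring, at -0.05 and -0.04, and under quantile normalization, at -0.03 and -0.04.

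Stat3 (ENSMUSG00000004040; chromosome 11, 100885098 to 100939540) encodes the main transcription factor of gp130 signalling. Its levels were 537, 531, 519 and 499 CPM across wild types 1, 3, 4 and 8, and 428, 468, 444 and 402 CPM across mutants 1 to 4. No mutant reached the lowest wild type, and mutant 4 was again the lowest. Stat3 thus differed by -0.26 in log2 CPM (SE 0.0561; limma adjusted p = 0.0148). The call was lost without the variance trend (0.113) and without wild type 1 (0.0569).

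Stat5b (chromosome 11, 100780731 to 100850724), a STAT used by growth hormone and by IL-31 signalling in some cells, had 59.7, 54.2, 57.0 and 48.5 CPM across wild types 1, 3, 4 and 8, and 56.0, 55.1, 57.0 and 52.5 CPM across mutants 1 to 4. The mutants lay within the wild-type range. The log2 difference was 0.01 (95% confidence interval -0.15 to 0.17; limma adjusted p = 0.953), and it was -0.08 under median centring and -0.02 under quantile normalization. Its longest transcript is 90.9% identical to that of Stat5a over 2332 bases, so reads could be split between these neighbours, and Stat5b values are uncertain to that extent. Stat5a had a wild-type level of 7.05 ± 1.45 CPM and a mutant level of 8.51 ± 1.59 CPM (SD, n = 4) and was not called (limma adjusted p = 0.436).

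Socs3 (chromosome 11, 117966079 to 117970047) encodes the inhibitor that STAT3 induces. Over the 8 libraries together it had the fewest reads of the 10 genes, 34 to 86 per wild-type library and 33 to 48 per mutant library. Levels were 8.57, 7.14, 5.04 and 10.9 CPM across wild types 1, 3, 4 and 8, and 4.93, 7.76, 5.70 and 6.29 CPM across mutants 1 to 4. The groups overlapped, and the wild types were the more scattered. The log2 difference was -0.31 with a 95% confidence interval of -0.77 to 0.15 (limma adjusted p = 0.435), so a fall as large as that of Jak1 or Il6st was not detectable for this gene. Annotated genes overlap Il31ra, Jak1, Tyk2 and Stat3 (Stat5a in the last case), and whether counting used the strand is not given in the sources used here.

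Levels of different genes were compared as CPM per kilobase of merged exons. In wild type the order was Lifr (143 ± 7.57 CPM per kilobase), Il6st (106 ± 2.06), Jak1 (75.2 ± 1.72), Stat3 (54.8 ± 1.76), Stat5b (9.91 ± 0.866), Il31ra (6.64 ± 0.983), Jak2 (5.61 ± 0.595), Osmr (5.29 ± 0.532), Tyk2 (2.92 ± 0.344) and Socs3 (2.73 ± 0.847; SD, n = 4 each). Among neighbours in that order, the sample ranges overlapped for Il31ra and Jak2, for Jak2 and Osmr, and for Tyk2 and Socs3. The shared chain Il6st was thus far above Osmr and Il31ra, as was Lifr. With the longest transcript as length, Osmr (11.7 CPM per kilobase) came above Il31ra (10.2), so the order of these chains depends on which exons are counted. In the mutant, Il31ra was at 0.648 ± 0.199 CPM per kilobase and Osmr at 2.0 ± 0.252. The fall in wild-type minus mutant level was 5.99 CPM per kilobase for Il31ra and 3.29 for Osmr, and it was 21.3 for Il6st, 20.8 for Lifr, 14.5 for Jak1 and 9.05 for Stat3. The abundant genes thus lost more transcript per length although their proportional falls were the smaller ones.

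Whether partner chains moved to the same extent was tested from the log2 CPM difference of 2 genes within each sample, from which scaling to library size nearly cancels. For 4 pairs named for their shared receptor, exact two-sided permutation over the 70 assignments of the samples was used, with adjustment over the 4 pairs. Il31ra minus Osmr was -0.70, -1.06, -0.51 and -0.81 in wild types 1, 3, 4 and 8 and -2.45, -2.11, -3.0 and -3.08 in mutants 1 to 4. The mutant values were all lower, a shift of -1.89 (exact permutation p = 0.0286, the smallest that 4 against 4 samples allow; adjusted p = 0.0381). The IL-31-specific chain thus differed between genotypes by more than its partner. The pairs use the same values as the single-gene differences and are not independent of them.

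Osmr minus Il6st, the oncostatin M receptor pair, was -4.25, -4.27, -4.30 and -3.96 across wild types 1, 3, 4 and 8, and -5.64, -5.33, -5.14 and -4.95 across mutants 1 to 4. The groups did not overlap and the shift was -1.07 (exact permutation p = 0.0286; adjusted p = 0.0381). Jak1 minus Jak2 was 4.28, 4.47, 4.19 and 4.10 across wild types 1, 3, 4 and 8, and 3.99, 3.89, 3.86 and 3.9 across mutants 1 to 4. This pair shifted by -0.35, again with no overlap (exact permutation p = 0.0286; adjusted p = 0.0381).

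Lifr minus Il6st, the pair for leukemia inhibitory factor, was 0.41, 0.40, 0.44 and 0.31 across wild types 1, 3, 4 and 8, and 0.37, 0.49, 0.54 and 0.58 across mutants 1 to 4. These groups overlapped, and the shift of 0.10 did not pass (exact permutation p = 0.114; adjusted p = 0.114). The adjusted p-values of the 3 other pairs depend on each other, because fewer pairs at the smallest possible p would not have passed. With 1 sample left out the smallest p that 3 against 4 samples allow is 0.0571, so no shift can pass, and the shifts of the 3 other pairs kept their sign in each of the 8 cases.

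**Figure D3:**
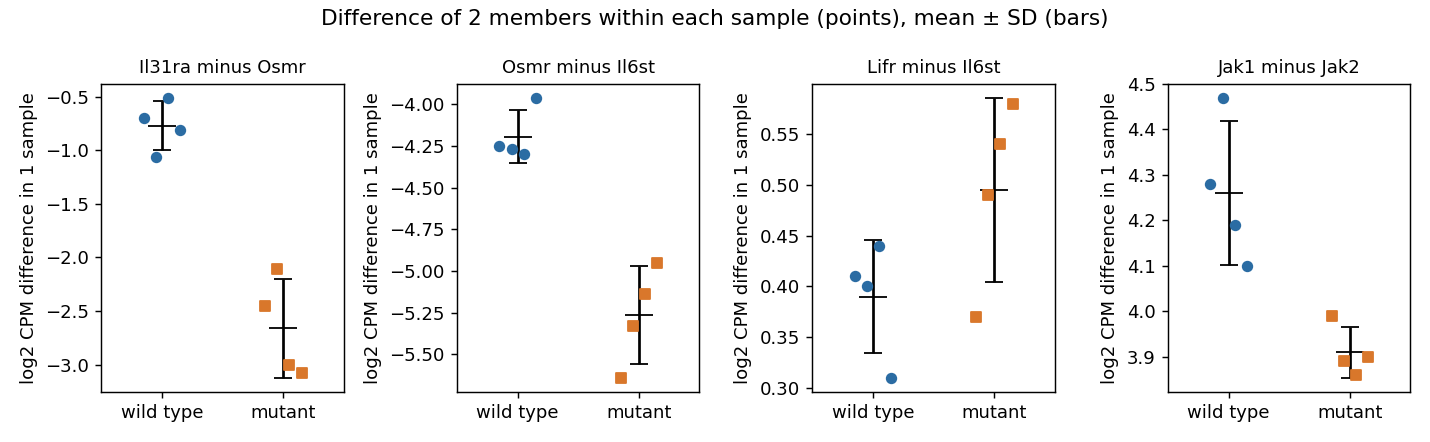
Log2 CPM difference of 2 genes within each sample (y axis; points, with mean ± SD as bars) in the 4 wild types and 4 mutants, for 4 pairs. The groups are apart for Il31ra minus Osmr, Osmr minus Il6st and Jak1 minus Jak2, and overlap for Lifr minus Il6st.

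The receptor genes lie in 2 clusters. Il6st and Il31ra are neighbours on chromosome 13 with 9.8 kb between them, and Osmr and Lifr lie 215.6 kb apart on chromosome 15, the chromosome of Tmem184b, at distances of 72.5 and 72.2 Mb from it. The 3 nearest tested genes on each side were set beside them. Around Il6st and Il31ra, Mier3, Map3k1, Ankrd55, Ddx4 and Slc38a9 were not called, with log2 differences from -0.10 for Map3k1 to 0.25 for Mier3. Ddx4 begins 4.0 kb beyond Il31ra and had a log2 difference of 0.12, with a standard error of 0.335, at a wild-type level of 1.97 CPM. Plpp1, 206.4 kb away, rose by 0.35 in log2 CPM (SE 0.0889; limma adjusted p = 0.0360). That call held in 8 of 19 alternative fits and was lost, among others, under median centring (0.113) and when wild type 1 (0.117) or 4 (0.0708) or mutant 1 (0.0538), 2 (0.087) or 4 (0.0999) was left out.

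Around Osmr and Lifr, none of the 6 neighbours was called by limma. Their log2 differences ran from -0.09 for Nup155 to 0.32 for Egflam, which begins 8.6 kb beyond Lifr. Rictor, 13.2 kb from Osmr, was at 0.09 (SE 0.0577; limma adjusted p = 0.410). Of the 12 neighbours, 0 were called lower by limma or by voom (0 at an unadjusted p under 0.05), and Plpp1 was the only one called higher by limma (3 higher at an unadjusted p under 0.05).

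**Figure D4:**
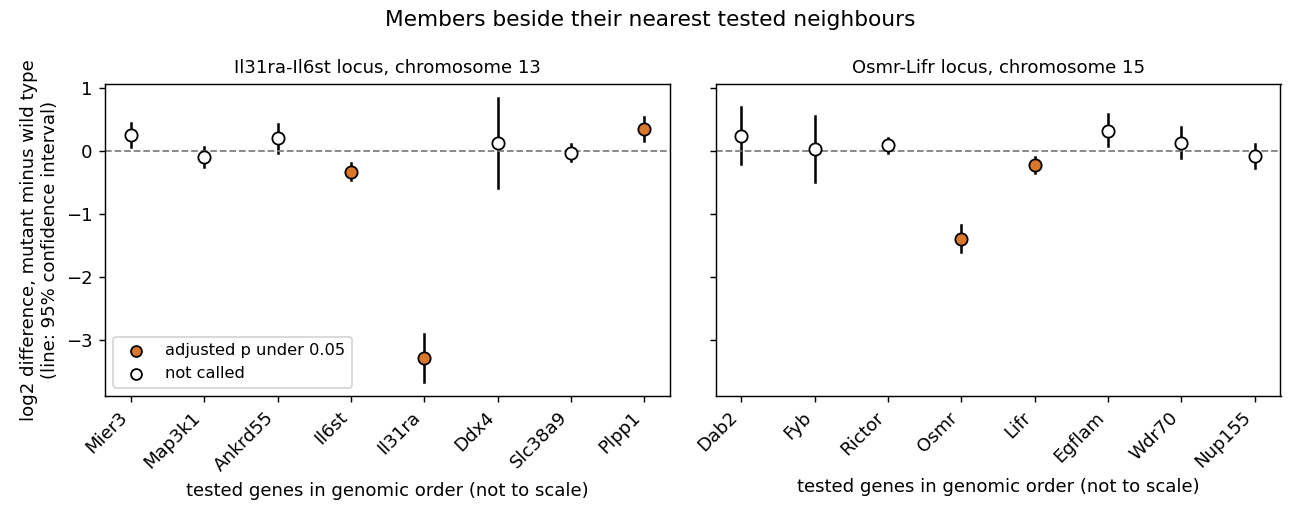
Log2 difference between mutant and wild type (y axis) with 95% confidence intervals for the receptor genes and the 3 nearest tested genes on each side, in genomic order and not to scale. Il31ra at -3.28 and Osmr at -1.40 lie far below their neighbours, which lie between -0.10 and 0.35.

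Other genes of the pathway were taken from 6 lists of 75 genes chosen by function, of which 61 were tested. Only Socs7, a suppressor of cytokine signalling, was called lower, and 0 were called higher by limma or by voom (5 lower and 10 higher at an unadjusted p under 0.05). Of all tested genes limma called 2.64% lower and 2.81% higher, so counts this low in 61 genes are near the share over all genes. The share of all genes at an unadjusted p was not taken. The median log2 difference of these 61 genes was 0.05. Socs7 had a wild-type level of 152 ± 13.2 CPM and a mutant level of 121 ± 12.9 CPM (SD, n = 4), a log2 difference of -0.33 (SE 0.0824; limma adjusted p = 0.0291). That call was lost without the variance trend (0.150) and when wild type 1 (0.10) or 3 (0.0855) or mutant 1 (0.0641) or 4 (0.0625) was left out.

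Ligands were nearly undetected in the ganglia. Of 11 ligand genes, 6 had at most 3 reads in each of the 8 libraries, and 2 passed the filter and were tested. Neither was called by limma or by voom (0 at an unadjusted p under 0.05). Il31, Clcf1 and Il27 had 0 reads in all 8 libraries. In a single library, a count of 0 does not exclude an expected count of up to about 3. Osm, the gene of oncostatin M, had 0 or 1 read per wild-type library and 0 to 4 per mutant library.

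The other receptor chains of the gp130 family, Il6ra, Il11ra1, Cntfr and Il27ra, were not called by limma or by voom. All 4 had positive log2 differences, 2 of them at an unadjusted p under 0.05. Of all 15030 tested genes, 9684 had positive differences too. Cntfr, the chain for ciliary neurotrophic factor, had a wild-type level of 61.5 ± 1.66 CPM and a mutant level of 67.4 ± 8.36 CPM (SD, n = 4; limma adjusted p = 0.424). Il6ra, named after its values were seen, was at 4.59 ± 0.698 and 6.44 ± 0.319 CPM with no overlap and a log2 difference of 0.47 (limma adjusted p = 0.10).

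Jak3, Stat2, Stat5a and Stat6 had log2 differences from -0.02 to 0.27 and none was called by limma or voom (0 at an unadjusted p under 0.05). Stat6, the factor of interleukin-4 signalling, had a wild-type level of 121 ± 2.60 CPM and a mutant level of 119 ± 2.89 CPM (SD, n = 4). Among 16 other negative regulators Socs7 was the only call, and Ptpn11, a phosphatase that binds gp130, was at 186 ± 8.33 and 193 ± 6.20 CPM (limma adjusted p = 0.611).

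Of 20 genes known to respond to STAT3, 18 were tested and 0 were called in either direction by limma or by voom, with 1 lower and 4 higher at an unadjusted p under 0.05. Mcl1, a survival gene, had a wild-type level of 74.8 ± 1.72 CPM and a mutant level of 82.6 ± 5.57 CPM (SD, n = 4; limma adjusted p = 0.222). Junb and Gfap were named after their values were seen. Junb, the 1 lower gene, had a log2 difference of -0.35 (limma adjusted p = 0.129). Gfap had one of 0.90 (0.188), with scattered wild types (22 to 97 reads per library, against 56 to 101 in mutants). The smallest p of this list belonged to another gene, higher in the mutant and called in the main fit only at an adjusted p under 0.1. Without wild type 4, Gfap, Fgl2 and Lepr, the last from the receptor list, were called higher.

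Among 18 other JAK-coupled receptors, 16 were tested and 0 called by limma or by voom (2 lower and 2 higher at an unadjusted p under 0.05). Ifnar1, a chain of the type I interferon receptor, had a wild-type level of 67.6 ± 1.96 CPM and a mutant level of 61.4 ± 2.59 CPM (SD, n = 4; limma adjusted p = 0.213). Il4ra, which like Il31ra serves a cytokine of itch, was named outside the naming rule given below. Its log2 difference was -0.13 (limma adjusted p = 0.331). Il4ra does not stand for the whole list, whose 16 tested genes had log2 differences from -0.45 for Crlf2 to 0.58 for Csf2rb.

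**Figure D5:**
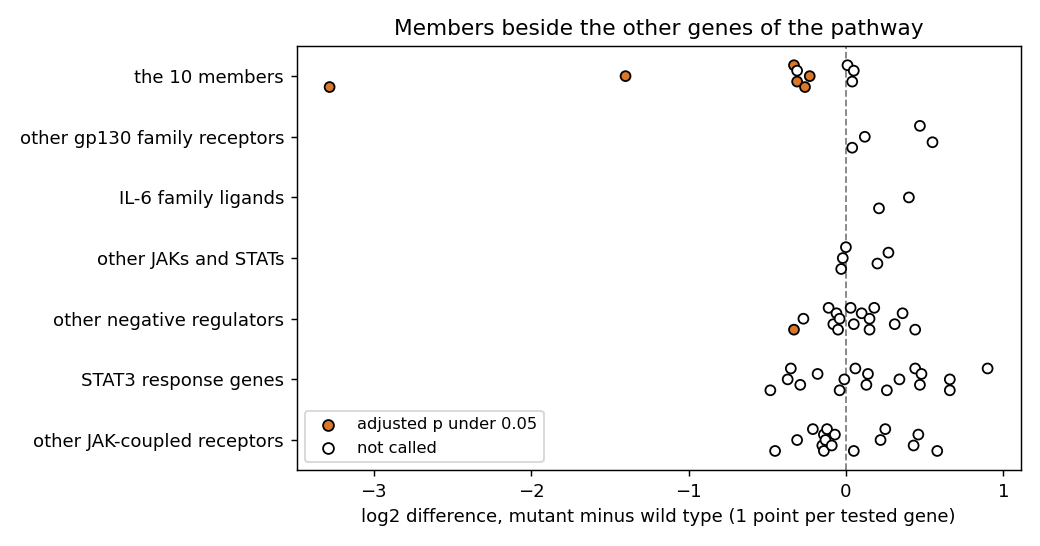
Log2 difference between mutant and wild type (x axis) of each tested gene, 1 point per gene, for the 10 genes and the 6 pathway lists (rows), filled where the adjusted p was under 0.05. Of the 10 genes 6 are filled, and of the 61 others only Socs7, where 2.64% of all tested genes were called lower.

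Markers of cell classes moved beside these genes. The 6 NP3 markers, a list that holds none of the 10 genes, gave sums of 34.7 to 57.3 CPM in wild-type and 8.47 to 12.2 CPM in mutant libraries, and 5 of 6 were called lower. Of all tested genes, limma called 2.64% lower and 2.81% higher, the shares beside which the marker counts stand. Nppb had 13 to 40 reads per wild-type library and 0 or 1 per mutant library, and Sst had 47 to 124 and 1 to 5. Nppb was above 0 log2 CPM only in wild types, so it passed the filter through that group alone. Sst was above 0 in the wild types and, at 0.01, in mutant 4. The 7 NP1 markers, of nonpeptidergic neurons marked by Mrgprd, gave sums of 1418 to 1538 CPM in wild-type and 787 to 1135 CPM in mutant libraries, with 7 of 7 called lower.

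The sums of the NP2 list were 64.4 to 99.4 and 34.8 to 66.1 CPM (2 of 5 tested genes called lower by limma, 1 by voom), and those of peptidergic neurons 1282 to 1358 and 1207 to 1377 CPM (0 of 6 called by limma or voom, 1 lower at an unadjusted p under 0.05). Of non-neuronal lists, satellite glia gave sums of 1988 to 2447 CPM in wild-type and 2262 to 3148 CPM in mutant libraries (2 of 6 called higher), Schwann cells 2235 to 2937 and 2598 to 3106 (1 of 6 higher), and fibroblasts 611 to 1222 and 794 to 1177 (1 of 6 higher). Macrophage markers summed to 32.7 to 57.2 and 42.7 to 71.5 CPM, and endothelial ones to 63.8 to 95.9 and 67.6 to 104 CPM, with no call in either list by limma or voom (3 and 1 genes higher at an unadjusted p under 0.05). The part of these classes in the falls of Il6st, Lifr, Jak1 and Stat3 was not tested.

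The remaining lists gave no call by limma or voom. Large neurofilament neurons gave sums of 3151 to 3499.7 CPM in wild-type and 3496 to 3862 CPM in mutant libraries (2 of 6 higher at an unadjusted p under 0.05), and C low-threshold mechanoreceptors 1293 to 1476 and 1072 to 1347 CPM (2 of 4 lower). Skeletal muscle genes summed to 3.49 to 34.8 and 11.1 to 162 CPM (5 of 5 tested higher at an unadjusted p under 0.05).

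Genes whose profile over the 8 samples was most like that of Il31ra or Osmr were found by the root mean square difference of log2 CPM, each profile taken relative to its wild-type mean. Nearest to Il31ra were Nppb (root mean square difference 0.31), Ndufs5 (0.60), Gm7534 (0.63), Sst (0.73) and Cysltr2 (0.76), of which Nppb, Sst and Cysltr2 are on the NP3 marker list. Values for Nppb and Gm7534 rest on 0 or 1 read in each mutant, and those for Ndufs5 on 1 to 4. Nppb, Gm7534 and Ndufs5 were above 0 log2 CPM only in wild types, so they passed the filter through that group alone. Their distances to Il31ra depend on the prior count. The log2 difference of Nppb ran from -5.09 to -2.06 over the alternative fits, against -3.47 to -3.06 for Il31ra. Cysltr2, a leukotriene receptor, had 81 to 125 reads per wild-type library and 10 to 22 per mutant library.

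Nearest to Osmr were A230052G05Rik (0.20), Npy2r (0.21), Pde4c (0.27), Ascl4 (0.28) and Htr1a (0.31). Npy2r, a neuropeptide Y receptor, had a wild-type level of 32.3 ± 1.77 CPM and a mutant level of 12.3 ± 0.76 CPM (SD, n = 4), 37.9% of the wild-type mean against 37.8% for Osmr. Npy2r reads numbered 207 to 246 per wild-type library and 75 to 89 per mutant library. Pde4c, a cyclic AMP phosphodiesterase, was at 32.0% and Htr1a, a serotonin receptor, at 29.8% of the wild-type mean. Ascl4 had only 6 to 11 reads per wild-type library and 1 to 4 per mutant library, and its fall was called in 5 of 18 alternative fits. It too was above 0 log2 CPM only in wild types and passed the filter through them. Likeness was measured over the same 8 samples that define the falls, so it describes these libraries.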

How the data were processed

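RNA sequencing of 8 ganglion samples was analysed from 1 table of log2 CPM that the authors deposited, with a prior count, per its name and values. Per the submitters' processing notes, Salmon 0.11.1, DESeq2 and the build mm9 were used, in roles not given. RNA came from a column kit and libraries were single-end, per the labels' protocols. Of 41422 lines, 40800 distinct identifiers were kept, the 402 repeated ones holding equal values. After the shared floor of -1.79 was subtracted on the linear scale, 100.0% of values were whole reads within 0.05, which gave reads, CPM and library totals, with 1 read worth 0.125 to 0.162 CPM. Such counts cover sampling of reads, not of molecules.

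Mutant was compared with wild type by limma 3.58.1 in R 4.3.3 (mean-variance trend, two-sided, no covariate), with adjustment over 15030 genes. The fit was also run on simulated reads with the same dispersion for every gene and larger fold changes. That run does not cover falls as small as those of Il6st, Lifr, Jak1 and Stat3. Fold changes on the moderated scale understate those of genes with few reads. The 10 genes, the lists and the naming rule (all 10, called list genes, the list gene with most reads, nearest neighbours, 5 most like profiles) were chosen with earlier results of these data known. Values of 2 list genes are not reported here. Alternatives changed the filter, the pseudocount, scaling, the variance model, the threshold, a covariate, the samples or a replicate block, or used voom. Positions and lengths are GENCODE M21 (GRCm38), not the authors' build, matched by identifier, promoters are RefSeq (GRCm38.p6), matched by symbol for 10 of 10 genes. Python 3.11.15, scipy 1.17.1 and blastn were used.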

Additional observations from a re-analysis of the deposited data

Results flagged for a closer look

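Among 28 sets of 4 values, one per sample of a genotype, 2 held a value set well apart from the remaining ones, and about 1 set in 20 does so by chance. Both values came from wild type 8, the sample with the highest running number in its header. For Lifr it stood at 10.47 log2 CPM, below wild types 1, 3 and 4, which ran from 10.62 to 10.64. For Osmr minus Il6st it stood at -3.96, above the -4.30 to -4.25 of the same samples. Without wild type 8, 6 of the 10 genes were still called lower, where 2.31% of all tested genes were, and the Osmr minus Il6st shift was -0.99.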

How the results depend on the processing

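Il31ra and Osmr were called lower in all 19 alternative fits, and no called gene of the 10 changed sign. The count of the 10 called lower was 2 without the variance trend (0.499% of all tested genes lower), 5 without a filter on low values (1.46%), under quantile normalization (2.81%) or with Xist as a covariate (2.4%), and 4 to 6 with 1 sample left out. It was 4 without wild type 1, where 1.53% of all tested genes were lower, and that share reached 2.84% without mutant 3. Of the other pathway genes, 2 were called lower under median centring (4.7% of all tested genes), 0 without the variance trend and 0 to 1 with 1 sample left out. At an adjusted p under 0.1, 1 was called higher, and with 1 sample left out 0 to 3 were, the 3 without wild type 4. Causes were not tested.

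No pairing of samples by the shared label numbers 1, 3 and 4 was evident. Deviations correlated at 0.0806, 0.0414 and 0.0575, and 2 of 6 samples correlated best with their own number. Such correlations cannot exclude a weak pairing. With the replicate block over these 6 samples 6 of the 10 genes were called lower (2.3% of all tested genes), and 6 without it (1.78%). The shifts in the replicate block were -2.09 for Il31ra minus Osmr, -0.97 for Osmr minus Il6st and -0.40 for Jak1 minus Jak2, where 3 pairs allow no p under 0.25. With 1 sample left out they ranged from -2.07 to -1.75, from -1.17 to -0.94 and from -0.40 to -0.28.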
